A study of Mus musculus with 10 samples.

Results

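Claudin transcripts were measured in mouse lung tumours started in CC10-positive cells of the airway. The claudins described are the 10 genes Cldn1, Cldn2, Cldn3, Cldn4, Cldn6, Cldn7, Cldn10, Cldn12, Cldn18 and Cldn23, each taken by its gene symbol from a table of 39017 genes. The comparison was between 5 control libraries and 5 libraries labelled Glut1-KO. Control mice were of the KP model, which carry, among other alleles, both copies of Trp53 floxed, on a C57BL6/J background. The mice of the Glut1-KO group (KPG1) carried the alleles of the KP model and also floxed Slc2a1, which encodes the glucose transporter Glut1, on both chromosomes. The controls' genotype label reads heterozygous for the floxed allele, the description of the design calls them wild type for Glut1, and the study's methods allow both. In both groups tumours were started with 200000000 plaque-forming units of an adenovirus (Ad5-CC10-Cre) that expresses Cre from the promoter of CC10, a secretory protein of club cells, and were collected 20 weeks and 1 day later. The age of the mice is not given in the sources used here. Tumours were dissociated and depleted of CD45-positive leukocytes with magnetic beads before RNA was taken. The promoter limits Cre to cells that use it, and the fraction can also hold stromal cells in which the floxed alleles were not cut.

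Claudins are small proteins with several membrane-spanning segments that join in strands at tight junctions, the belts which close the space between neighbouring epithelial cells. Some claudins mainly seal this space, whereas others form channels through it for ions and water. The alveolar epithelium of the lung is known for Cldn18, Cldn3 and Cldn4, and Cldn7 lies along airway and alveolar cells. The proteins are held at the junction by scaffolds such as ZO-1 (Tjp1).

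The libraries held between 35.3 and 49.8 M counts each. Slc2a1 in the controls was at 118, 86.7, 92.6, 103 and 73.2 counts per M (CPM, scaled by TMM, which corrects for library composition) in replicates 1 to 5. In the libraries labelled Glut1-KO it was at 60.3, 42.5, 34.6, 92.4 and 103 CPM. Replicates 1 to 3 of that group, labelled female, were thus below all controls, and replicates 4 and 5, labelled male, were within the control range. Replicates 4 and 5 share 1 number in their deposited names, which no label explains and which might identify an animal, so each value below for the male libraries alone may rest on 1 mouse of the Glut1-KO group. The gene-level count does not single out the floxed exons. All 5 controls were male, so sex and genotype cannot be told apart for the female libraries. Epithelial markers were present throughout: Cdh1 (E-cadherin) averaged 1110 ± 276 CPM over the controls and 1100 ± 283 CPM over the other 5 libraries (± SD). Sftpc, surfactant protein C of alveolar type 2 (AT2) cells, averaged 20800 and 22500 CPM, and Scgb1a1, which encodes CC10 itself, 4890 and 2380 CPM. In bulk RNA, fewer cells of a type and less RNA per cell cannot be told apart.

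All 10 claudins passed the filter on low counts, which left 15922 genes to test. None of the 10 was called in limma at an adjusted p under 0.05, and none of the 15922 genes was (0%). The edgeR quasi-likelihood test also called 0 genes and DESeq2 called 210, none of them one of the 10 claudins. At an unadjusted limma p under 0.05 there were 2 of 10 claudins, Cldn4 and Cldn2, both lower in the libraries labelled Glut1-KO, against 1223 genes (7.68%) overall. In 0 of 10 claudins did the groups fail to overlap, against 293 of all tested genes (1.84%). By sign of the log2 fold change 4 claudins were higher and 6 lower, with a median of -0.12, beside a median of 0 over all tested genes. Their median absolute log2 fold change was 0.6, beside 0.18 over all tested genes, and the spread between libraries of 1 group was above the median of all genes (SD 0.35 on the log2 scale) in 7 of 10. The differences, shown with their intervals in the plot of log2 fold changes, had the widest intervals in Cldn10, Cldn1 and Cldn23.

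**Figure D1:**
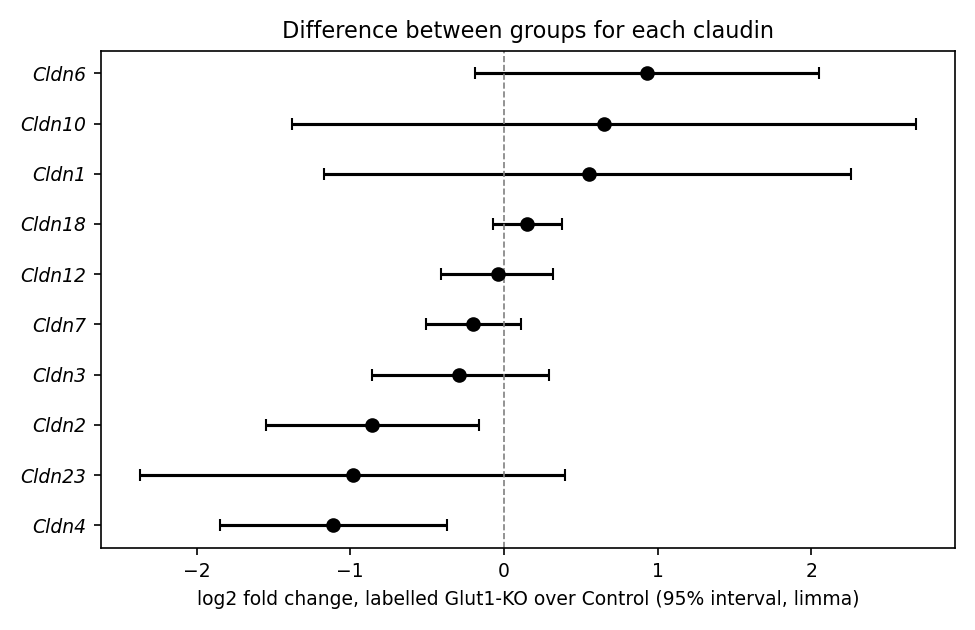
Log2 fold change of each claudin, libraries labelled Glut1-KO over controls, as estimated by limma (points) with its 95% interval (bars, 5 libraries per group); the dashed line marks no difference. Only the intervals of Cldn4 (-1.85 to -0.37) and Cldn2 (-1.55 to -0.16) lie on 1 side of 0, before adjustment over all tested genes.

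Of the claudins that mainly seal the junction, Cldn4 had the largest log2 fold change in size. It was at 187, 161, 119, 190 and 144 CPM in control replicates 1 to 5. The libraries labelled Glut1-KO held 76.4, 41.3, 41.7, 110 and 146 CPM. The 4 lowest of these were below all controls, and replicate 5 lay inside the control range, so the groups overlapped in 1 library. The means were 160 ± 29.6 and 83 ± 45.1 CPM (SD, n = 5 each). This was a log2 fold change of -1.11 with an SE of 0.34, which passed limma's test before and not after adjustment over all genes (adjusted p = 0.449). A 2-sided exact permutation test over the 252 ways to divide the libraries gave p = 0.0238, unadjusted, where 0.00794 is the smallest p it allows. Without control replicate 1, 2 or 4 this exact p was 0.0556. The 3 lowest libraries were the 3 female ones, which are also those with Slc2a1 below all controls. Against the controls, the female libraries alone gave a log2 fold change of -1.63 (SE 0.24, limma adjusted p = 0.077), and the 2 male ones -0.32 (SE 0.22, limma adjusted p = 0.676). Sex, genotype and Slc2a1 level cannot be told apart in the female libraries, since no control was female.

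The promoter of Cldn4 is printed because it held more motif matches than any other claudin window searched. RefSeq (GRCm38.p6) gave 14 windows of the 250 bases before a start for 9 of the 10 claudins, and Cldn23 had no entry. Each was searched on both strands for 3 motifs, whose matches did not overlap in the windows printed. The AP-1 motif TGANTCA was present in 6.75% of 32851 promoter windows of this length. The E-box letters CAGGTG were present in 17.2% of them. The letters TATAAA, the core of the TATA-type start signal, were present in 12.4%. The Cldn4 window is chr5:134946935-134947184, minus strand, given 5′ to 3′ with the matches in capitals.

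Cldn4: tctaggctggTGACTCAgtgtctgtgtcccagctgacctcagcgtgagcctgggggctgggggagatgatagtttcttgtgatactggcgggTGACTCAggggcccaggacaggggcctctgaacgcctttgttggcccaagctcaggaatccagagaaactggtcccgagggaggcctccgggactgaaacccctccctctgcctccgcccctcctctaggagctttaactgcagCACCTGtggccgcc

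The first and second runs of capitals match the AP-1 motif, 240 and 158 bases before the start, and the third is an E-box on the opposite strand, 14 bases before it. No other claudin window held an AP-1 match. A match of letters is a description of the sequence and does not show that a factor binds there.

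Cldn4 (chr5:134945119-134946934, minus strand, GRCm38 here and below) and Cldn3 (chr5:134986214-134987472, plus strand) lie 39280 bases apart on the same chromosome. Both bind the enterotoxin of a clostridial bacterium, and Cldn3 seals against ions and small solutes. Cldn3 was at 75, 162, 124, 130 and 198 CPM in the controls. The other group held 127, 69.1, 131, 99.4 and 125 CPM. Of the latter, 4 lay within the control range and replicate 2 lay below it. The means of 138 ± 45.9 and 110 ± 26.1 CPM gave a log2 fold change of -0.29 with a 95% interval from -0.86 to 0.29 (limma adjusted p = 0.81). It was -0.49 without control replicate 1, -0.14 without control replicate 5 and -0.13 without Glut1-KO replicate 2. Of the exons of Cldn3, 40 bases are shared with Wbscr25, an antisense gene. Use of strand in counting is not stated, so a few reads of the pair might not be told apart. Cldn3 and Cldn4 had a Pearson's r of 0.3 across the 10 libraries.

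Cldn18, the leading claudin of alveolar cells, was the steadiest of the 10. Control replicates held 481, 425, 447, 455 and 496 CPM, and the libraries labelled Glut1-KO 592, 518, 457, 510 and 494 CPM. Of the latter, 3 were above all controls, and replicates 3 and 5 were not. The means were 461 ± 28.2 and 514 ± 49.4 CPM, a log2 fold change of 0.15 with an interval from -0.07 to 0.38 (limma adjusted p = 0.751). An exact permutation test gave p = 0.0556. The same p was 0.0397 without control replicate 5 and 0.0238 without Glut1-KO replicate 3. Its spread within a group, an SD of 0.11 on the log2 scale, was at the 1.85th percentile of all tested genes, and the highest library was 1.39-fold above the lowest. The leukocyte gene Ptprc, which encodes CD45, was at 2.3 to 3.26 CPM in controls and at 5.05 to 10.1 CPM in the other group, so its groups did not overlap (limma adjusted p = 0.23). Over the 12 immune markers listed, the summed level ran from 115 to 336 CPM over the controls and from 179 to 271 CPM over the other group, and none was at 0 in all libraries. Most of this sum came from Cd14, which averaged 167 ± 86.3 and 164 ± 37.9 CPM. Before adjustment 4 of the 9 immune markers tested passed limma's test, all of them higher in the libraries labelled Glut1-KO, beside 7.68% of all tested genes. They were Ptprc and, named after their values were seen, Itgax (log2 fold change 1.05, limma adjusted p = 0.484), Csf1r (0.88, limma adjusted p = 0.484) and Adgre1 (0.85, limma adjusted p = 0.624). The part of leukocytes in the Cldn18 values was not tested. Cldn18 (chr9:99689461-99717267, minus strand) has 2 starts in RefSeq that give the lung form and the stomach form, and gene-level counts cannot separate them.

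Cldn7, which also lies along the sides of epithelial cells below the tight junction, was at 163, 167, 131, 163 and 148 CPM in controls. The libraries labelled Glut1-KO held 140, 101, 122, 160 and 155 CPM. Replicates 2 and 3 of that group were below all controls and the others lay within their range. Their log2 fold change was -0.2 with an interval from -0.51 to 0.11 (limma adjusted p = 0.758). It was -0.1 without Glut1-KO replicate 2 and 0.03 in the male libraries alone. Cldn7 (chr11:69964779-69967885, plus strand) has 2 starts in RefSeq. The window before the second, at chr11:69965171-69965420, is printed because it alone held 2 E-box matches.

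Cldn7 start 2: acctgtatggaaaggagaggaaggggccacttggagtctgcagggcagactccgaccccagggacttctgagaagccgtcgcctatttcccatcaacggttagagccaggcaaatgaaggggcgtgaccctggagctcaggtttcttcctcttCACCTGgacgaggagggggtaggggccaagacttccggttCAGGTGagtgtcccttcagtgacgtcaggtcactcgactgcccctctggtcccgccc

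The capitals mark the E-boxes, 97 and 57 bases before the start, the former on the opposite strand. An E-box match was found before 1 other claudin, Cldn6, at 93 bases, beside those of Cldn4 and Cldn7.

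Cldn1 (chr16:26356642-26371841, minus strand), a sealing claudin needed for the barrier of the skin, was low and scattered. In controls it was at 0.532, 12.5, 0.716, 3.41 and 7.14 CPM, from as few as 21 counts in replicate 1. The libraries labelled Glut1-KO held 5.06, 5.82, 2.94, 2.67 and 4.12 CPM. All of these lay between the lowest and the highest control, which were 23.6-fold apart. The limma log2 fold change of 0.55 had an interval from -1.17 to 2.26 (adjusted p = 0.885). Its direction was not stable, since edgeR and DESeq2 both gave -0.24, and limma gave -0.02 without control replicate 1, 0.08 without control replicate 3 and 1.17 without control replicate 2.

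**Figure D2:**
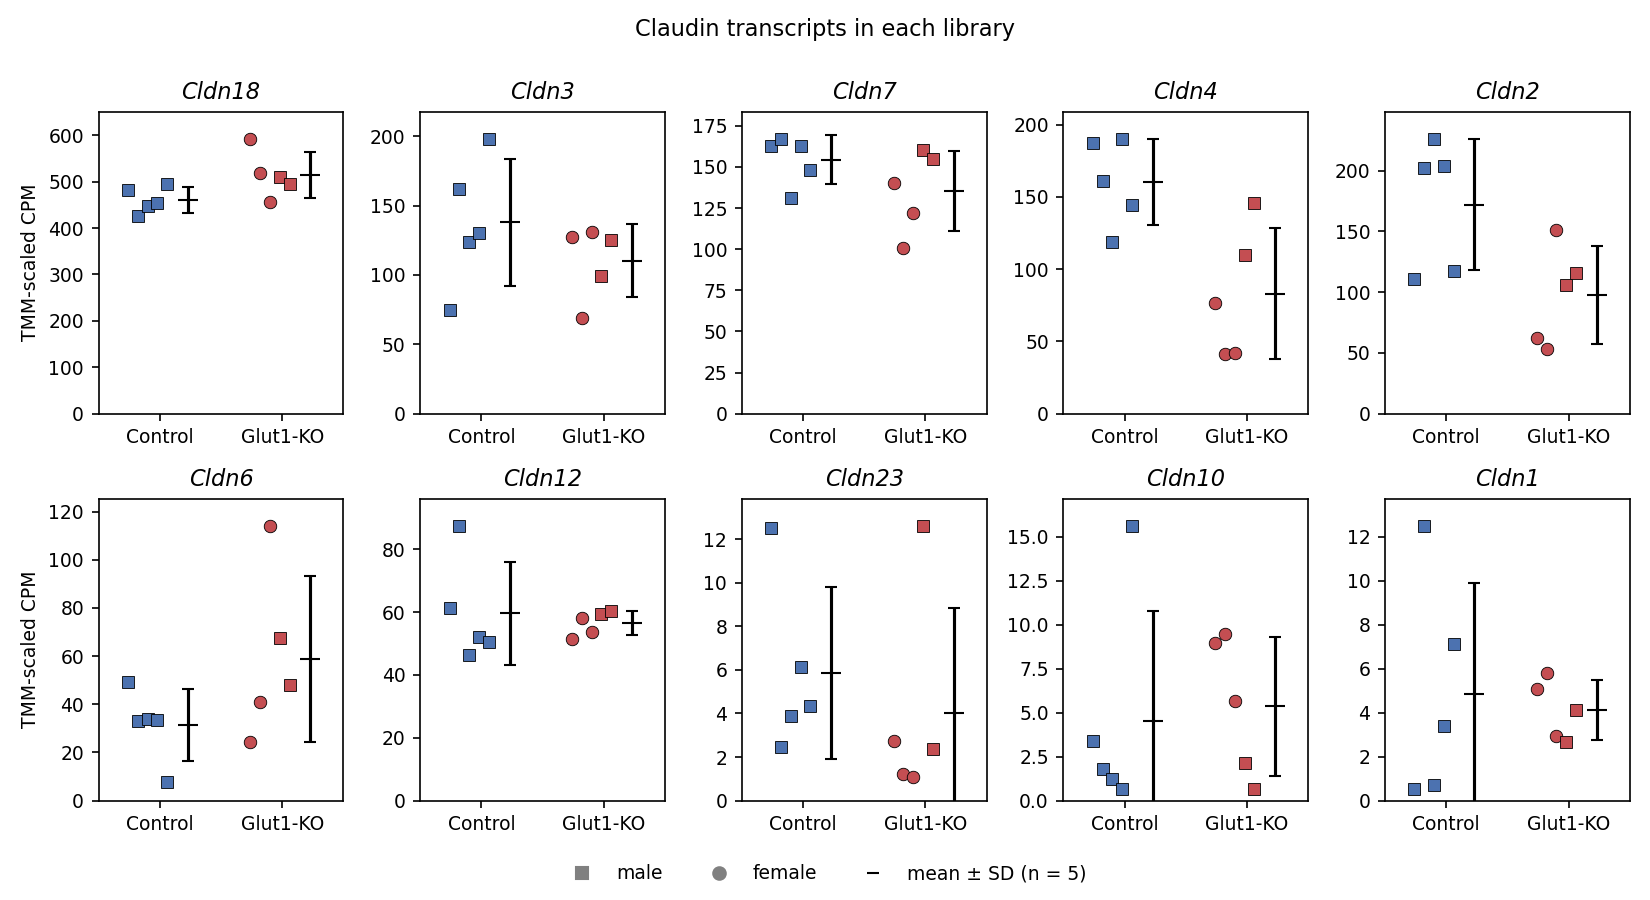
Level of each claudin (TMM-scaled CPM, linear axes that start at 0) in the 5 control libraries (blue) and the 5 libraries labelled Glut1-KO (red), with squares for male and circles for female mice, and mean ± SD as black bars, which are cut at 0 where they would pass below it. For Cldn4 the 3 female libraries (41.3 to 76.4 CPM) lie below every control (119 to 190 CPM), and for Cldn18 all libraries lie between 425 and 592 CPM.

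Of the claudins that form channels, Cldn2 makes pores for cations and water. It was at 111, 202, 226, 204 and 117 CPM in control replicates 1 to 5. The libraries labelled Glut1-KO held 62, 53.5, 151, 106 and 116 CPM. The lowest 3 of them, replicates 1, 2 and 4, were below all controls, and controls 1 and 5 lay apart from the other 3 controls at nearly the level of Glut1-KO replicate 5. The means were 172 ± 53.7 and 97.8 ± 40.4 CPM (SD, n = 5 each). They differed by -0.86 on the log2 scale with an SE of 0.32 (limma adjusted p = 0.57). An exact permutation test gave p = 0.0476. Leaving out 1 library at a time kept this p under 0.05 only without control replicate 1, control replicate 5 or Glut1-KO replicate 3, and it ran from 0.0635 to 0.103 for the other 7. In the male libraries alone the log2 fold change was -0.57 and the exact p was 0.238. Cldn2 lies on the X chromosome (chrX:139800828-139811386, plus strand). Its promoter is printed because it alone of the claudin windows held the TATA-type letters, which are in capitals 35 bases before the start (chrX:139800558-139800807).

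Cldn2: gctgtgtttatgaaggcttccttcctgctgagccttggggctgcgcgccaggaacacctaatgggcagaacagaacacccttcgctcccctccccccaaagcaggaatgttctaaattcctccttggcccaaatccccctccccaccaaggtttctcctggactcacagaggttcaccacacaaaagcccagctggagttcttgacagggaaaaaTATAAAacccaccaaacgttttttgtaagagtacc

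Cldn10 (chr14:118787908-118875489, plus strand), whose splice forms make channels for cations or for anions, was at 3.37, 1.78, 1.24, 0.636 and 15.6 CPM in controls. The libraries labelled Glut1-KO held 8.96, 9.46, 5.64, 2.12 and 0.679 CPM. The 3 female libraries were above 4 of the 5 controls, and the 2 male ones lay within the range of those 4. The log2 fold change of 0.65 had an interval from -1.38 to 2.68 (limma adjusted p = 0.885). It ran from 0.2 to 1.32 with 1 library left out, with 0.2 without control replicate 4, 1.32 without control replicate 5 and 1.3 without Glut1-KO replicate 5. In the male libraries alone it was -1.03, so its direction turned, and with the female Glut1-KO libraries alone it was 1.72 (SE 0.76). It was 1.48 with quality weights, 0.25 with edgeR and 0.26 with DESeq2. The forms were not counted apart here.

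Cldn6 (chr17:23679249-23682446, plus strand) is a claudin of embryonic epithelia that is scarce in most adult tissues. In controls it was at 49.3, 33.1, 33.7, 33.4 and 7.84 CPM. The other group held 24.2, 41, 114, 67.4 and 48 CPM. Replicates 3 and 4 of the Glut1-KO libraries were above all controls and the other 3 were not. The means of 31.5 ± 14.9 and 59 ± 34.6 CPM gave a log2 fold change of 0.93 with an interval from -0.19 to 2.05 (limma adjusted p = 0.709). The fold change was 0.49 on the log2 scale without control replicate 5, and over all omissions of 1 library it ran up to 1.21. Between its lowest library, control replicate 5, and its highest, Glut1-KO replicate 3, lay a 14.6-fold range.

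Cldn12 (chr5:5489537-5514958, minus strand), an atypical claudin without the C-terminal motif by which most others bind ZO-1, was at 61.3, 87.4, 46.3, 52.2 and 50.6 CPM in controls. The libraries labelled Glut1-KO held 51.3, 58.1, 53.7, 59.4 and 60.2 CPM, all inside the control range. On the log2 scale the difference was -0.04 with an interval from -0.41 to 0.32 (limma adjusted p = 0.964), and its sign depended on the libraries used, with 0.11 without control replicate 2 and -0.13 without control replicate 3. Cldn23 (chr8:35824712-35826559, minus strand), one of the less studied claudins, was at 12.5, 2.45, 3.9, 6.13 and 4.34 CPM in controls. The other group held 2.73, 1.24, 1.08, 12.6 and 2.36 CPM. In 3 of these it was lower than in any control, and Glut1-KO replicate 4 held as much as the highest control. Its log2 fold change of -0.98 had an interval from -2.37 to 0.4 (limma adjusted p = 0.745). It was 0.06 in the male libraries alone, -1.66 with the female Glut1-KO libraries alone, -0.56 with edgeR and -0.55 with DESeq2. Without Glut1-KO replicate 4 it was -1.51, and over all omissions of 1 library it ran from -1.51 to -0.67. The exact permutation p was 0.23, and 0.0238 without Glut1-KO replicate 4.

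To compare the claudins with each other, counts were divided by exon length and given as transcripts per M (TPM). By mean TPM over the 10 libraries the order was Cldn18 (350), Cldn3 (317), Cldn7 (238), Cldn4 (212), Cldn2 (130), Cldn6 (83.8), Cldn12 (44.4), Cldn23 (8.18), Cldn10 (6.24) and Cldn1 (3.12). The first 4 made up 69.5% to 87.3% of the summed claudin TPM of a library, and the last 3 made up 0.531% to 2.03%. Of the 9 steps between neighbours in this order, 1 passed an exact sign-flip permutation test within libraries, adjusted over the steps. This was the step from Cldn12 down to Cldn23, a difference of 2.8 in log2 TPM that was seen in 10 of 10 libraries (adjusted p = 0.0176, exact permutation). It did not pass in controls alone (2.33, adjusted p = 0.281, exact permutation) or in the other group alone (3.27, adjusted p = 0.225, exact permutation), where the smallest exact p that 5 libraries allow is 0.0625. Cldn18 and Cldn3 did not differ beyond their spread (0.21 in log2 TPM, adjusted p = 0.248), nor did Cldn3 and Cldn7, Cldn7 and Cldn4, or any neighbours from Cldn4 to Cldn12. Of these steps 3 passed with 1 library left out, each at an adjusted exact permutation p of 0.0352. They were Cldn3 over Cldn7 without control replicate 1 (0.45), Cldn4 over Cldn2 without Glut1-KO replicate 3 (0.87) and Cldn6 over Cldn12 without control replicate 5 (0.91). Cldn18 was first in 6 libraries, Cldn3 in 3 and Cldn4 in 1. The step of Cldn18 over Cldn3 was 0.11 without Glut1-KO replicate 2 and -0.01 in controls alone. Over the controls Cldn3 averaged 356 TPM and Cldn18 331 TPM. Cldn4 stood anywhere between rank 1 and rank 6. With the longest transcript as the length, Cldn7 came above Cldn3 (-0.19 in log2 TPM for Cldn3 over Cldn7) and its step over Cldn4 grew to 0.86 (adjusted p = 0.00879, exact permutation). The summed claudin TPM averaged 1510 ± 232 over the controls (1300 to 1870) and 1270 ± 126 over the other group (1090 to 1410), so the groups overlapped.

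**Figure D3:**
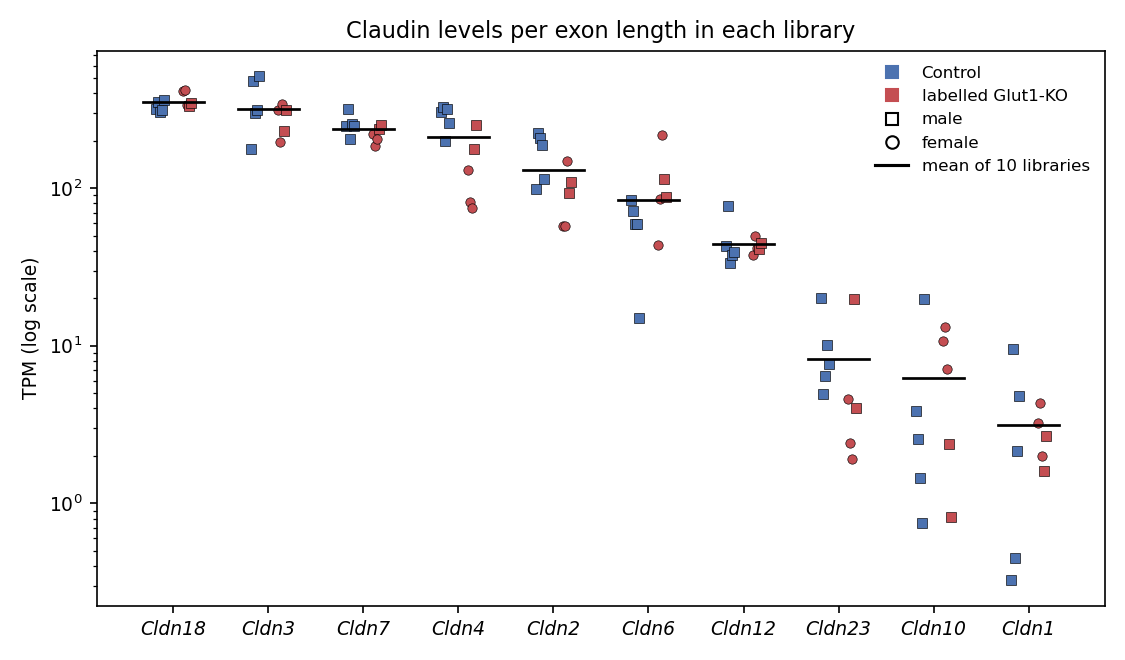
Claudin levels per exon length (TPM, log axis) in each library, ordered by the mean over 10 libraries (black lines), with controls in blue, libraries labelled Glut1-KO in red, squares for male and circles for female mice. The 7 claudins from Cldn18 to Cldn12 average 44.4 TPM or more, and the 3 after them average 8.18 TPM or less.

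Correlations across the 10 libraries were computed for the 45 pairs of claudins on log2 CPM, with permutation p-values adjusted over the pairs. Of the pairs, 20 had a positive r and 25 a negative one, with a median of -0.04. An adjusted p under 0.05 was found for 2 pairs. Cldn4 and Cldn7 were positively correlated, with a Pearson's r of 0.88 (permutation p = 0.00131, adjusted p = 0.0295) and a Spearman's rho of 0.85 (permutation p = 0.0028, adjusted p = 0.063). Within groups, on deviations from the group means, r was 0.89. Without the 2 libraries farthest from the median of Cldn4 (Glut1-KO replicates 2 and 3) it was 0.66 and no longer passed the test over the 8 libraries left (adjusted p = 0.698). With only replicate 2 of these left out it was 0.83, and with only replicate 3 left out 0.9. Its adjusted p was above 0.05 without controls 1, 2 or 4 or Glut1-KO replicates 1, 2 or 3, with values up to 0.145.

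Cldn2 and Cldn18 were negatively correlated, with a Pearson's r of -0.88 (permutation p = 0.00039, adjusted p = 0.0175) and a Spearman's rho of -0.9 (permutation p = 0.00079, adjusted p = 0.0355). The library with the most Cldn18, Glut1-KO replicate 1 at 592 CPM, held 62 CPM of Cldn2, and the one with the least, control replicate 2 at 425 CPM, held 202 CPM. Without the 2 libraries farthest from the median r was -0.96, and on deviations from the group means it was -0.8 (adjusted p = 0.0758). The adjusted p was above 0.05 without controls 2 or 4 or Glut1-KO replicates 1 or 3, with values up to 0.0637. CPM values of 1 library share its scaling, and the range of Cldn18 in this pair is only 1.39-fold.

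**Figure D4:**
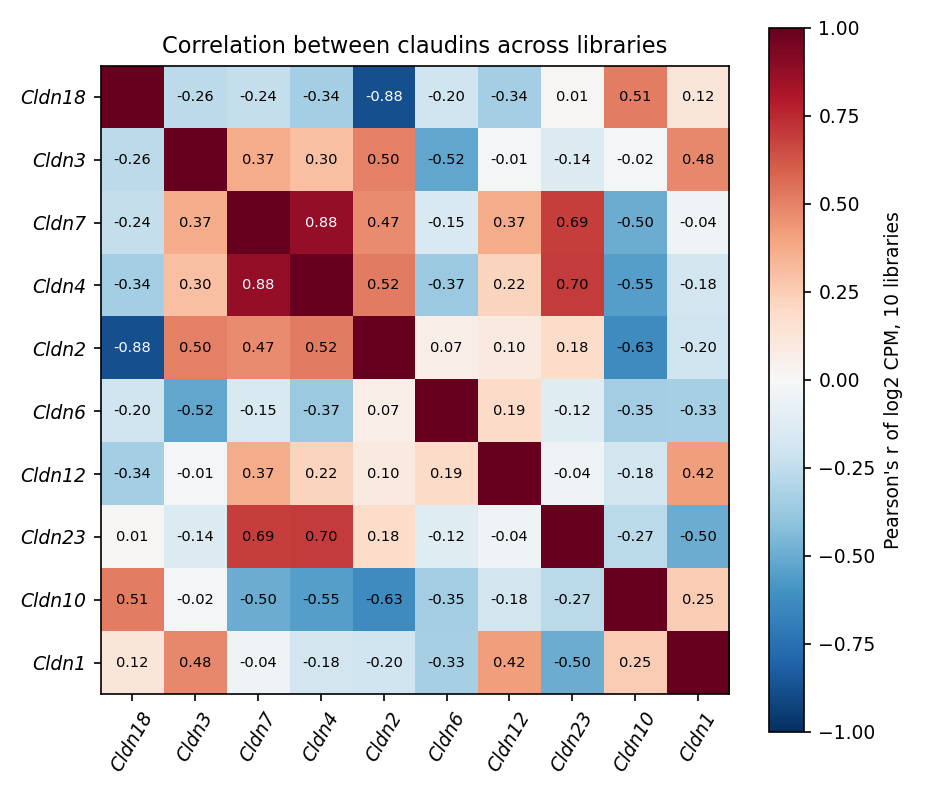
Pearson's r of log2 CPM between all pairs of the 10 claudins across the 10 libraries, with red for positive and blue for negative values. The pairs Cldn4 and Cldn7 (0.88) and Cldn2 and Cldn18 (-0.88) are the strongest of the 45.

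**Figure D5:**
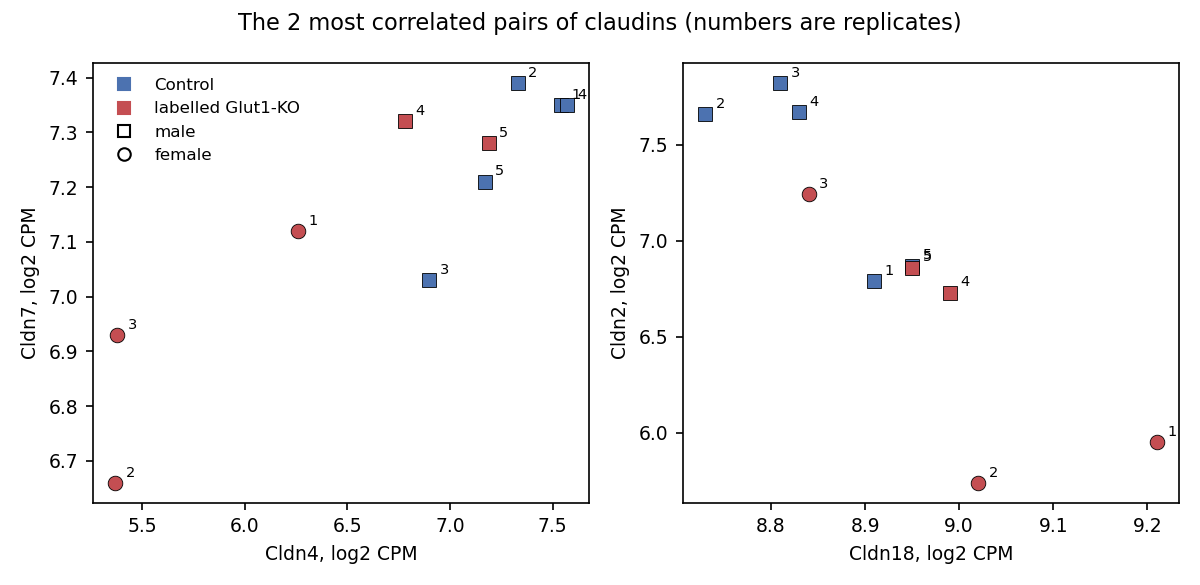
Log2 CPM of Cldn7 against Cldn4 (left) and of Cldn2 against Cldn18 (right), 1 point per library, numbered by replicate, with controls in blue, libraries labelled Glut1-KO in red, squares for male and circles for female mice. Glut1-KO replicates 2 and 3 lie at the low end of both Cldn4 and Cldn7, and the Cldn2 values fall as those of Cldn18 rise.

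For each claudin the tested genes with the most similar pattern over the 10 libraries were taken by Pearson's r of log2 CPM, as a description. For Cldn4 these were Fosl1 (0.96), Uhrf2 (0.95) and Dync1li1 (0.95). Fosl1 was at 23, 20.9, 17.9, 27.6 and 15.7 CPM in controls and at 6.18, 5.02, 5.68, 12.4 and 21 CPM in the other group, with the same 3 female libraries lowest. The genes nearest to Cldn7 were Paqr5 (0.97), Nbeal2 (0.95) and Ppap2c (0.94), and to Cldn3 Arrdc1 (0.96), Npepl1 (0.95) and Mlxipl (0.95). Cldn18 was most like Ccl22 (0.93) and Tyrobp (0.88), whose means were 0.541 and 2.14 CPM, and E2f2 (0.87). Nearest to Cldn2 were Crisp1 (0.89), Fam110a (0.88) and Homer3 (0.87), and to Cldn6 Mgst2 (0.94), Slc39a1 (0.9) and Fads1 (0.88). Those of Cldn1 were Crisp2 (0.97), Cyp2c40 (0.96) and Rab26 (0.94), and those of Cldn10 were Pla2g4e (0.91), Hipk3 (0.9) and 1700084C01Rik (0.88). Cldn12 had Adat2 (0.95), Lace1 (0.94) and Socs5 (0.94), and Cldn23 had Ell2 (0.95), Papss1 (0.94) and Cttn (0.94). With 15922 genes and 10 libraries, high values of r arise for any gene.

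Of 19 other claudin and claudin-domain genes in the table, 5 were tested and 6 had no count in any library. None was called. Cldn5, the claudin of vascular endothelium, averaged 3.64 ± 1.14 CPM over the controls and 5.98 ± 2.26 CPM over the other group, a log2 fold change of 0.71 that passed limma's test only before adjustment (adjusted p = 0.643). The 12 endothelial markers all had a positive log2 fold change, with a median of 0.54, and their summed level was 152 to 540 CPM in controls and 254 to 703 CPM in the other group. Their part in the Cldn5 values was not tested. Cldn8, a sealing claudin of the kidney tubule, averaged 9.43 and 7.24 CPM (log2 fold change -0.49, limma adjusted p = 0.799), and Cldnd1 50.4 and 42.6 CPM (-0.24, limma adjusted p = 0.712).

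Partners of claudins at the junction were taken as lists. Among 12 other tight junction membrane proteins, 7 were higher and 5 lower by sign, 0 were called, and the median log2 fold change was 0.07. The smallest p-values belonged to Ildr2, of the angulin family at tricellular contacts (0.73, limma adjusted p = 0.734), the polarity protein Crb3 (0.21, limma adjusted p = 0.784) and the junctional adhesion molecule Jam3 (0.62, limma adjusted p = 0.791). Among 16 scaffold and polarity genes 8 were higher and 8 lower, 0 were called, and the median was -0.02. Tjp1, which encodes ZO-1, averaged 275 ± 31.5 and 302 ± 19.8 CPM (log2 fold change 0.14, limma adjusted p = 0.78), the angiomotin relative Amotl1 48.6 ± 10.2 and 37.4 ± 2.96 CPM (-0.35, limma adjusted p = 0.654) and the polarity kinase Prkci 178 ± 20.4 and 196 ± 13.2 CPM (0.14, limma adjusted p = 0.773). These medians stand beside 0 for all tested genes.

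Among 14 adherens junction genes and claudin partners 7 were higher and 7 lower by sign, 0 were called, and the median was 0. The protease Prss8 had a log2 fold change of 0.27 (limma adjusted p = 0.726) and the adhesion molecule Nectin4 of 0.51 (limma adjusted p = 0.725). Of 17 transcription factors with a known link to claudins or epithelial identity 8 were higher and 9 lower, 0 were called, and the median was -0.05. Ovol1, a repressor active in epithelia, averaged 26.8 ± 5.81 and 18 ± 3.86 CPM (log2 fold change -0.56, limma adjusted p = 0.531). Cebpa, a factor of AT2 cells, averaged 315 ± 39.2 and 390 ± 53.6 CPM (0.31, limma adjusted p = 0.616). These 2 of the 17 factors passed limma's test before adjustment, beside 7.68% of all tested genes. Nkx2-1, which drives the lung form of Cldn18, averaged 187 ± 40.6 and 235 ± 32.1 CPM (0.35, limma adjusted p = 0.667). None of these lists held a gene whose groups did not overlap, beside 1.84% of all tested genes.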

How the data were processed

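The authors trimmed reads with Cutadapt, aligned them to mm10 with HISAT2 and, per the submitters' processing notes, counted them with featureCounts 1.4.4. Single-end stranded libraries came from polyadenylated RNA (500 ng). The use of strand is not given in the sources used here. The deposited values are raw counts per gene, and 10 of 10 columns of the combined table equalled the single files. Positions and exon lengths came from GENCODE M21 (GRCm38), which held 96.4% of the 39017 gene identifiers.

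Counts were filtered with filterByExpr of edgeR 4.0.16 (minimum count 10, minimum total 15), scaled by TMM and passed through voom (prior count 0.5). The linear model was that of limma 3.58.1 in R 4.3.3, with the group as the only term, following the tools of the study's methods. P-values were adjusted by Benjamini-Hochberg over all 15922 genes at a threshold of 0.05. DESeq2 1.42.0 and edgeR's quasi-likelihood test were alternatives. Correlation p-values came from 100000 resamples. Tests of correlations and of level order, and the figures, were made in Python 3.11.15 with numpy 2.4.6, scipy 1.17.1 and matplotlib 3.10.9. The fit was tested on simulated data, and no result of that test is reported here. Totals were 35.3 to 49.8 M counts per library, and Cldn1, the lowest claudin, had 21 to 676 counts.

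The claudins and the gene lists were chosen with earlier results of these data known. Every claudin was named, with the 3 most similar genes to each, the 3 genes with the smallest p of each junction list, and, of each cell type list, the 2 highest markers and any whose groups did not overlap. Some items are not reported here. Nothing states that libraries came from separate mice. File names carry a second number, with 2 such numbers over the controls (1 for replicates 1, 2 and 5 and 1 for replicates 3 and 4), 4 over the other group and 0 shared, so p-values may measure technical spread. Deviations from the group mean had a median r of -0.19 between libraries of a group with the same number and of -0.21 between those with different numbers. Libraries with the same replicate number did not deviate together.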

Additional observations from a re-analysis of the deposited data

Results flagged for a closer look

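Of 26 sets of 5 values checked for a library far from its group (the 10 claudins, Slc2a1, the summed claudin TPM and the library totals, in each group), 3 passed the 95% limit of Dixon's gap test, which chance would pass in about 1 in 20 sets. Cldn10 was at 15.6 CPM in control replicate 5, with the other controls at 0.636 to 3.37 CPM. Cldn23 was at 12.6 CPM in Glut1-KO replicate 4, with the others at 1.08 to 2.73 CPM. Control replicate 2 had the deepest library at 49.8 M counts, with the other controls at 40.1 to 41.4 M.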

How the results depend on the processing

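Cldn1, Cldn10 and Cldn23 had the fewest counts and the widest spread between libraries, and a filter at a mean TPM of 20 left those 3 untested. No claudin was called by any alternative. Of 117 log2 fold changes of claudins under other settings 105 kept their direction, and of 100 with 1 library left out 98 did. The cause of the changes below was not tested. Genes past the threshold numbered 210 with DESeq2, 3 with sex as a covariate, 1 in male libraries only, 9 with female Glut1-KO libraries only and 2 with libraries of 1 name number summed, and 0 to 1 with 1 library left out, the 1 without control replicate 3. With the replicate number as a replicate block 0 genes were called, and same-numbered libraries had correlations of deviations between -0.13 and 0.2, so the numbers did not pair them. Log2 fold changes that turned were Cldn1 (-0.24 with edgeR, -0.24 with DESeq2, -0.01 with summed libraries), Cldn12 (0.04 with quality weights, with sex as a covariate and in male libraries), Cldn7 (0.03 with sex and in male libraries), Cldn10 (-1.02 with sex, -1.03 in male libraries) and Cldn23 (0.06 in both). In male libraries the exact permutation p was 0.238 for Cldn2, 0.238 for Cldn4, 0.857 for Cldn7, 0.619 for Cldn10, 1 for Cldn12 and 0.857 for Cldn23, and for Cldn1 on linear CPM it was 0.817. Differences in log2 TPM were -0.01 for Cldn18 over Cldn3, -0.14 for Cldn7 over Cldn4 and 2.33 for Cldn12 over Cldn23 in controls alone. In Glut1-KO libraries alone they were -0.14 for Cldn2 over Cldn6, 3.27 for Cldn12 over Cldn23 and -0.05 for Cldn23 over Cldn10. With the longest transcript they were -0.19 for Cldn3 over Cldn7 and 0.86 for Cldn7 over Cldn4. Correlated pairs past the threshold numbered 1 without the 2 farthest libraries and 1 on deviations, with r of 0.66 for Cldn4 and Cldn7 and -0.8 for Cldn2 and Cldn18. With 1 library left out, the pairs numbered 0 to 2, with r of 0.83 to 0.92 and -0.94 to -0.86. Over the same omissions the exact permutation p ran from 0.0397 to 0.103 for Cldn2, 0.00794 to 0.0556 for Cldn4, 0.0238 to 0.127 for Cldn18, 0.0238 to 0.429 for Cldn23 and 0.286 to 0.992 for Cldn12. The log2 fold change ran from -0.02 to 1.17 for Cldn1 and -0.13 to 0.11 for Cldn12. Steps in log2 TPM ran from 0.28 to 0.45 for Cldn3 over Cldn7, 0.58 to 0.87 for Cldn4 over Cldn2 and 0.49 to 0.91 for Cldn6 over Cldn12.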

Other observations

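Markers of the other cell types that the fraction could hold were not called in limma at an adjusted p under 0.05. All 10 ciliated cell markers were lower by sign in the Glut1-KO group. Their log2 fold changes had a median of -0.95, and their summed level ran from 20.6 to 512 CPM over the controls and from 33.2 to 188 CPM over the other libraries. Of 10 club cell markers 8 were lower by sign, with a median of -0.56. Scgb1a1 averaged 4890 ± 3160 and 2380 ± 1590 CPM (limma adjusted p = 0.718) and Hp 1240 ± 673 and 1630 ± 607 CPM. AT2 markers had a median of 0.21 and AT1 markers of 0.07, where Ager of AT1 cells averaged 822 ± 313 and 1180 ± 527 CPM. Gastric-like markers had a median of -0.01, fibroblast markers of -0.21, mesothelial markers of -0.6, general epithelial markers of -0.02 and proliferation markers of -0.18. Of the 5 mesothelial markers only 3 were tested, Msln (-0.81), Upk1b (-0.6) and Upk3b (0.24). Upk1b averaged only 0.945 and 0.692 CPM, and Upk3b 0.723 and 1.03 CPM. Among immune markers 7 of 9 tested were higher by sign, with a median of 0.24.

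The highest markers of the other lists are given as means, first over the controls and then over the Glut1-KO group. Sftpb of AT2 cells averaged 16200 ± 2730 and 21400 ± 6610 CPM, and Gprc5a of AT1 cells 547 ± 67.5 and 568 ± 84.2 CPM. In ciliated cells Sec14l3 averaged 97.7 ± 108 and 62.5 ± 48.3 CPM and Tppp3 42 ± 49.4 and 17 ± 10.4 CPM. The endothelial genes Vwf and Pecam1 averaged 55.7 and 50.8 CPM in controls against 78.4 and 70.5 CPM. Fn1 and Col3a1 of fibroblasts averaged 1700 and 67.7 CPM against 1330 and 67 CPM, and Msln and Upk3b of mesothelium 228 and 0.723 CPM against 120 and 1.03 CPM. The gastric-like genes Gkn2 and Ctse averaged 379 and 333 CPM against 279 and 298 CPM. Of the immune genes Cd14 and Cd68 averaged 167 and 17.5 CPM against 164 and 21.2 CPM. Krt7 of epithelium averaged 1000 ± 319 and 1220 ± 837 CPM, and the proliferation genes Mki67 and Top2a 97.3 and 78.5 CPM against 104 and 68.6 CPM.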
